A study of Xenopus laevis with 39 samples.

Results

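The larval principal cavity of the frog Xenopus laevis, the main chamber of its nose, was compared with the larval vomeronasal organ (VNO), a separate blind chamber beside it. The comparison rests on 3 principal cavity libraries and 3 VNO libraries, chosen by the column names of the deposited count table, and these are 6 of the 39 libraries of a study of the nose at larval and stage-66 ages and of the larval olfactory bulb, which also covers nerve transection and amino acid exposure. Per the labels, both chambers were taken before metamorphosis, and the principal cavity libraries hold the main nasal epithelium. The labels name neither strain nor treatment for these groups, and they do not say whether libraries came from separate animals or from pools, so each p-value reflects only how far these libraries vary among themselves. Control larval noses and control larval olfactory bulbs, 3 libraries each, were used for orientation only.

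Receptor neurons with cilia detect odorants through receptors that activate a stimulatory G protein, and the cyclic AMP made by adenylyl cyclase opens a cyclic nucleotide-gated channel whose calcium influx opens a chloride channel. Receptor neurons with microvilli, the kind found in vomeronasal organs, use other receptors, inhibitory or Go-type G proteins and a phospholipase C pathway. In aquatic larvae of this species the principal cavity smells waterborne substances and holds neurons of both kinds, whereas the VNO holds neurons with microvilli. The genome is allotetraploid, and the suffixes .L and .S mark the gene copies (homeologs) of its subgenomes.

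Depth ran from 43379380 to 80767093 counted reads per library. Spearman correlations over 31396 tested genes lay between 0.961 and 0.984 within the principal cavity, between 0.950 and 0.979 within the VNO and between 0.887 and 0.919 across chambers. VNO library 1 stood apart in having reads from 31512 genes, against 34186 and 34629 genes in the other VNO libraries, and in giving 8.63% of its reads to its 10 most abundant genes. Keratin krt2l.S varied widely within the VNO, with 115, 179.9 and 80.7 CPM in the principal cavity, against 252, 1.32 and 4.44 CPM in the VNO. The proliferation gene top2a.L had 47.6, 152 and 10.2 CPM in the principal cavity, against 91.7, 115 and 85.5 CPM in the VNO.

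The test called 2719 of 31396 genes (8.66%) higher in the principal cavity and 2049 (6.53%) lower, at an adjusted p under 0.05 in edgeR's quasi-likelihood test with Benjamini-Hochberg adjustment, and together these are 15.2%. Levels are given as CPM, read counts scaled to a common library total with TMM factors, and a log2 fold change is principal cavity over VNO with its standard error (n = 3 libraries per group). More than a 4-fold difference was found for 1199 of the higher and 753 of the lower genes, and more than a 16-fold difference for 609 and 365. The higher calls numbered 1063 without principal cavity library 1, 1458 without principal cavity library 3 and 1379 without VNO library 2, and the lower calls 936, 1188 and 1088. A call was counted as held where it passed, in the same direction, in all 6 fits that leave out 1 library each, which was so for 985 higher genes (3.14%) and 898 lower genes (2.86%). For 5890 genes (18.8%) all principal cavity libraries lay above all VNO libraries, and for 5383 (17.1%) all lay below.

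Libraries of the whole larval nose carried most of the held genes at intermediate levels. The mean of the control noses lay between the means of the chambers for 898 of the 985 genes held as higher (91.2%) and for 730 of the 898 held as lower (81.3%), compared with 35.4% of all genes tested. Held genes were chosen for a difference between the chambers, and a wide gap encloses another mean more readily. The contrast with all genes follows at least in part from that choice. Gene models without a symbol made up 46.5% of the higher and 48.1% of the lower held genes, against 31.4% of all genes tested, and they are given by number only. Because these are tissue samples, fewer cells of a type and less RNA per cell cannot be told apart.

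Marker genes were summed per library in TPM, the authors' measure scaled for gene length, to check what each dissected chamber held. Markers of ciliated olfactory receptor neurons summed to 938, 756 and 827 TPM in the principal cavity, against 21.6, 43.6 and 78.6 TPM in the VNO. In the principal cavity most of this sum came from 1 gene, the G protein subunit gng13, whose copies together gave 904, 728 and 789 TPM in the principal cavity, against 10.2, 22.7 and 54.3 TPM in the VNO. By gene, 4 of 8 ciliated markers were higher and 0 lower, against 8.66% and 6.53% of all genes tested. Markers of microvillous and vomeronasal neurons reached 3795, 3252 and 2639 TPM in the principal cavity, against 2926, 5176 and 5905 TPM in the VNO, so both chambers carried them. A large part of the principal cavity sum came from s100z. Its copies together gave 2353, 1845 and 1097 TPM in the principal cavity, against 30.0, 71.55 and 226 TPM in the VNO. The copies of gng8 and calb2 were lower in the principal cavity. Of the microvillous and vomeronasal markers 4 of 10 were higher and 4 lower, against 8.66% and 6.53% of all genes tested. The defining genes omp, gnal and trpc2 were not analysed here. A label gives the tissue of the VNO libraries as olfactory lobe, but markers of bulb and brain summed to 20.3 to 20.9 TPM in the principal cavity and 17.8 to 32.5 TPM in the VNO, against 1605 to 1703 TPM in control bulbs. Among these, neurod6.L had 3 reads in all principal cavity libraries together and 1 in all VNO libraries together, and lhx1.L had 1 and 0, whereas slc17a7.L, which many excitatory neurons express, had 11404 and 10681. Of these 21 bulb and brain genes 9 were not tested. The 2 higher in the principal cavity were tbr1.L and tbr1.S, and the 2 lower were slc17a7.S and tbx21.S. The gene tbr1.S had 1008 reads in the principal cavity and 61 in the VNO.

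Some markers of nerve glia, endothelium and multiciliated cells were higher in the principal cavity and some of muscle lower, while no marker of red cells, cartilage or cycling cells passed the test. Glia of the nerve summed to 73.7 to 109.7 TPM in the principal cavity and 19.4 to 28.9 TPM in the VNO, endothelium to 13.4 to 16.1 TPM in the principal cavity and 3.49 to 6.19 TPM in the VNO, and multiciliated cells to 391 to 508 TPM in the principal cavity and 102 to 203 TPM in the VNO. Red cell markers (hba3 not analysed here) gave 1142 to 5423 TPM in the principal cavity and 5098 to 22990.0 TPM in the VNO, with the highest value in VNO library 1, and muscle markers gave 11.8 to 15.2 TPM in the principal cavity and 18.9 to 47.9 TPM in the VNO, against 48.8 to 1444 TPM in whole noses. Cartilage gave 75.2 to 133 TPM in the principal cavity and 34.8 to 304 TPM in the VNO, where VNO library 2 was highest, and cycling cells 11.6 to 157 TPM in the principal cavity and 77.1 to 99.6 TPM in the VNO. The chambers overlapped for red cells, cartilage and cycling cells. By gene, 3 of 6 glial, 5 of 8 endothelial and 3 of 7 multiciliated markers were higher in the principal cavity. None of the 6 red cell and 6 muscle markers was higher, and 4 of 6 muscle markers were lower. Of all genes tested, 8.66% were higher and 6.53% lower. The part of these cells in the results below was not tested.

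**Figure D1:**
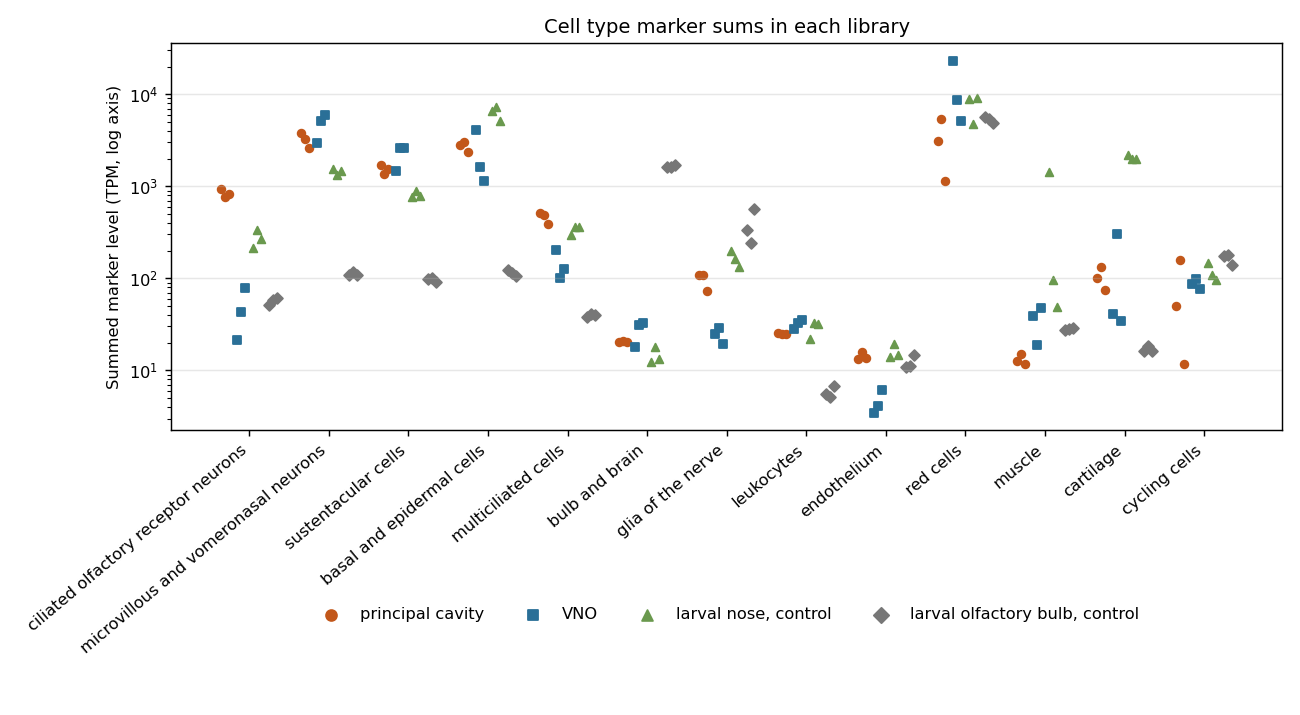
Summed level of the marker genes of each cell type (TPM, log axis) in single libraries of the principal cavity, the VNO, the control larval nose and the control larval bulb; each point is 1 library. The principal cavity libraries sit above all 3 VNO libraries for ciliated receptor neurons, nerve glia and endothelium, and both chambers sit far below the bulb for bulb and brain markers.

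Some genes of the ciliary cascade were higher in the principal cavity, among them cnga2.L, cngb1.L and pde1c.L. Of 32 tested genes of this list 8 (25%) were higher and 2 (6.25%) lower, against 8.66% and 6.53% of all genes tested. The median log2 fold change of the list was 0.58, compared with 0.0047 over all genes, and 7 higher calls and 1 lower call held. The lower calls numbered 1 without principal cavity library 1, 1 without VNO library 2 and 1 without VNO library 3. The channel subunit cnga2.L had 10.9, 10.3 and 19.9 CPM in the principal cavity, against 0.0255, 0.449 and 0.413 CPM in the VNO (log2 fold change 5.44 ± 0.72, adjusted p = 0.00309), and no library of 1 chamber reached the levels of the other. Its level in VNO library 1 lay below what the filter on low counts asks, so it passed only through the principal cavity. The direction and lack of overlap of cnga2.L are therefore no independent support. Its partner subunit cngb1.L had 77.6, 60.8 and 78.8 CPM in the principal cavity, against 2.90, 6.49 and 7.60 CPM in the VNO (log2 fold change 3.68 ± 0.34, adjusted p = 0.000486). A further subunit of this channel, cnga4.L, had 0.755, 0.753 and 0.650 CPM in the principal cavity, against 0.408, 0.364 and 0.797 CPM in the VNO, and its difference did not pass (log2 fold change 0.46 ± 0.49, adjusted p = 0.573). The calcium-dependent phosphodiesterase gene pde1c.L, whose product degrades cyclic AMP, had 212, 142 and 214 CPM in the principal cavity, against 5.198, 8.21 and 15.3 CPM in the VNO (log2 fold change 4.31 ± 0.41, adjusted p = 0.000628). Adenylyl cyclase differed less: adcy3.L had 78.3, 61.0 and 96.9 CPM in the principal cavity, against 12.8, 21.6 and 27.1 CPM in the VNO (log2 fold change 1.95 ± 0.28, adjusted p = 0.00363), while adcy3.S missed the threshold (log2 fold change 0.69 ± 0.21, adjusted p = 0.0659). The bulb also carried adcy3.L, at 41.1 CPM on average.

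At the chloride step of the cascade, the genes named here were not called higher in the principal cavity. The chloride channel gene ano2.L had 124, 88.3 and 122 CPM in the principal cavity, against 104, 158 and 209 CPM in the VNO, and neither it (log2 fold change -0.48 ± 0.26, adjusted p = 0.259) nor ano2.S (log2 fold change -0.58 ± 0.26, adjusted p = 0.179) passed the test. The cotransporter gene slc12a2.S, whose product loads receptor neurons with chloride, had 154, 124 and 153 CPM in the principal cavity, against 245, 326 and 368 CPM in the VNO and was lower in the principal cavity (log2 fold change -1.11 ± 0.20, adjusted p = 0.00896; -0.68 with both homeologs summed).

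**Figure D2:**
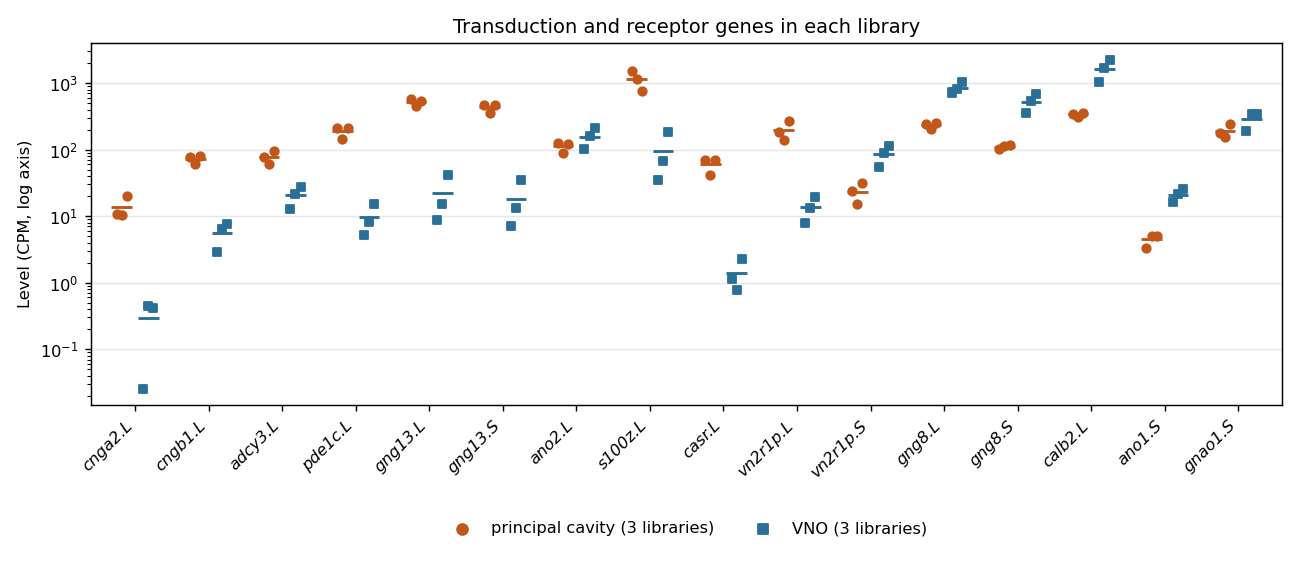
Level of transduction and receptor genes (CPM, log axis) in single libraries; circles are principal cavity libraries, squares VNO libraries, and bars the mean of 3. The cyclic AMP genes and casr.L lie higher in all principal cavity libraries, gng8, calb2.L and ano1.S lie higher in all VNO libraries, and ano2.L and gnao1.S overlap between chambers.

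The gamma subunits of G proteins divided the chambers. The olfactory subunit gng13.L had 579.6, 445 and 542 CPM in the principal cavity, against 8.79, 15.2 and 42.1 CPM in the VNO (log2 fold change 4.58 ± 0.60, adjusted p = 0.00339). The gene gng13.S had 462, 359.6 and 469.8 CPM in the principal cavity, against 7.11, 13.2 and 34.6 CPM in the VNO (log2 fold change 4.57 ± 0.60, adjusted p = 0.00344). In the opposite direction, gng8.L had 240.4, 206 and 252 CPM in the principal cavity, against 702, 812 and 1034 CPM in the VNO (log2 fold change -1.86 ± 0.21, adjusted p = 0.00115). The gene gng8.S was lower in the principal cavity as well (log2 fold change -2.24 ± 0.26, adjusted p = 0.00123); in mouse, Gng8 is known from vomeronasal neurons. On the length-scaled measure, gng13 summed over both homeologs reached 904, 728 and 789 TPM in the principal cavity, against 10.2, 22.7 and 54.3 TPM in the VNO. The same sum for gng8 was 851, 866 and 857 TPM in the principal cavity, against 2003, 3363 and 3718 TPM in the VNO. Of their joint TPM, gng13 made up 45.7 to 51.5% in the principal cavity and 0.510 to 1.44% in the VNO. Control bulbs held 41.9 TPM of gng13 and 2.40 TPM of gng8 on average.

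Across G proteins and their regulators, 15 of 89 tested genes (16.9%) were higher and 3 (3.37%) lower, against 8.66% and 6.53% of all genes, with 8 and 3 held. Higher calls numbered 8 without principal cavity library 1 and 8 without VNO library 2, and the lower calls 7 without VNO library 1. Anchors and members of the RGS family, which speed up the switching-off of G proteins, were among the higher genes. The anchor rgs7bp.S had 32.1, 24.4 and 30.4 CPM in the principal cavity, against 2.47, 2.26 and 3.16 CPM in the VNO (log2 fold change 3.47 ± 0.21, adjusted p = 0.000104). The gene rgs9bp.L had 49.9, 47.0 and 33.3 CPM in the principal cavity, against 4.28, 3.73 and 7.83 CPM in the VNO (log2 fold change 3.05 ± 0.32, adjusted p = 0.000799; 1.04 summed). The RGS gene rgs8.S followed at 4.83 ± 1.56 CPM in the principal cavity and 0.535 ± 0.353 CPM in the VNO (SD, n = 3 each; log2 fold change 3.14 ± 0.60, adjusted p = 0.0111).

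Genes of microvillous and vomeronasal neurons moved in both directions. Of 32 tested, 8 (25%) were higher and 6 (18.8%) lower, against 8.66% and 6.53% of all genes, with 2 and 5 held and a median log2 fold change of -0.11. With 1 library left out, the higher calls came to 3 without principal cavity library 1 and 2 without VNO library 2. Calretinin, a calcium buffer that marks vomeronasal neurons, was lower: calb2.L had 343, 313 and 357 CPM in the principal cavity, against 1030.5, 1675 and 2235 CPM in the VNO (log2 fold change -2.28 ± 0.29, adjusted p = 0.002). The other copy calb2.S had 1393, 1208 and 1819 CPM in the principal cavity, against 2701, 4095 and 5277 CPM in the VNO (log2 fold change -1.44 ± 0.30, adjusted p = 0.0155). Its call ended without principal cavity library 1 and without VNO library 2. Low levels of the chloride channel gene ano1.S were also lower in the principal cavity, with 3.29, 5.07 and 5.09 CPM in the principal cavity, against 16.3, 21.3 and 25.6 CPM in the VNO (log2 fold change -2.23 ± 0.25, adjusted p = 0.00118).

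The calcium-binding protein gene s100z was higher in the principal cavity. For s100z.L the libraries held 1538, 1133 and 755 CPM in the principal cavity, against 35.5, 67.8 and 187 CPM in the VNO (log2 fold change 3.58 ± 0.64, adjusted p = 0.0123). The call ended without VNO library 2. The copy s100z.S had 1038, 783 and 537 CPM in the principal cavity, against 15.4, 28.7 and 119.6 CPM in the VNO (log2 fold change 3.87 ± 0.82, adjusted p = 0.0272). Its call ended without principal cavity library 1, 2 or 3 and without VNO library 2. Alpha subunits of the Gi and Go type mark vomeronasal neurons in mouse. The Gi subunit gnai2.L had 71.3, 64.5 and 76.1 CPM in the principal cavity, against 31.7, 32.6 and 28.9 CPM in the VNO and was higher in the principal cavity (log2 fold change 1.18 ± 0.14, adjusted p = 0.00144). The Go subunit gnao1.S had 177, 157 and 243 CPM in the principal cavity, against 189.9, 338 and 348 CPM in the VNO with overlapping chambers, and neither gnao1.S (log2 fold change -0.60 ± 0.27, adjusted p = 0.185) nor gnao1.L (log2 fold change -0.33 ± 0.21, adjusted p = 0.337) passed the test.

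Annotated odorant receptors had more reads in the principal cavity, but most of them entered the test only through that chamber. The table names 15 genes as odorant receptors by symbol, of which 13 were tested. Of these, 12 were higher in the principal cavity and 0 lower, against 8.66% and 6.53% of all genes. The higher call held for 6, against 3.14% of all genes. All 13 had groups that did not overlap (18.8% of all genes tested did so in this direction). Summed over the 13, their level was 40.2, 27.6 and 46.1 CPM in the principal cavity, against 0.560, 2.42 and 3.60 CPM in the VNO. The count of higher calls became 7 without principal cavity library 1, 6 without principal cavity library 3 and 7 without VNO library 2. Receptor gene or5i1.L had 14.7, 11.4 and 14.5 CPM in the principal cavity, against 0.127, 0.534 and 0.974 CPM in the VNO (log2 fold change 4.599 ± 0.58, adjusted p = 0.00205), followed by or11l1.L with 7.33, 4.78 and 7.80 CPM in the principal cavity, against 0.127, 0.437 and 0.502 CPM in the VNO (log2 fold change 4.18 ± 0.49, adjusted p = 0.00132). For or6s1.S, 204 reads in the principal cavity stood against 0 in all VNO libraries, and a floor of 3 reads over the VNO group makes it at least 66.4-fold higher. The median log2 fold change of the 13 was 4.18, also with the 4 receptors that had no VNO read set at their bounds. These 4 passed the filter on low counts only through the principal cavity, so their direction was fixed in advance. Receptors or4e2.L and or2t27.L, with 2 and 9 reads over the VNO group, also passed only through the principal cavity. So did or5i1.L and or11l1.L, whose 0.127 CPM in VNO library 1 lay below what the filter asks of a library. The rest of the 13 were not checked singly. All 13 together had only 0.560 CPM in VNO library 1, so few of them could have passed through the VNO. The counts of 12 higher and 0 lower, the lack of overlap and the median were therefore set largely by the filter. They are no independent support for the direction.

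Of 14 tested class C receptor genes (receptors of calcium, amino acids and other ligands) outside the vomeronasal family, 4 (28.6%) were higher and 0 lower, with 3 held, against 8.66% of all genes higher. The calcium-sensing receptor gene casr.L had 70.1, 41.7 and 69.3 CPM in the principal cavity, against 1.15, 0.789 and 2.29 CPM in the VNO (log2 fold change 5.42 ± 0.45, adjusted p = 0.000375). Its homeolog casr.S had 41.5, 25.5 and 41.5 CPM in the principal cavity, against 1.04, 1.27 and 2.88 CPM in the VNO (log2 fold change 4.38 ± 0.42, adjusted p = 0.000648). Control bulbs carried casr.L at 0.00701 CPM and casr.S at 0.00297 CPM on average. The orphan receptor gene gprc5b.L was higher too (log2 fold change 1.97 ± 0.35, adjusted p = 0.00891).

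The 2 tested genes annotated as vomeronasal receptors were homeologs that differed in direction. The copy vn2r1p.L had 182, 140.2 and 267 CPM in the principal cavity, against 8.00, 13.3 and 19.4 CPM in the VNO (log2 fold change 3.86 ± 0.38, adjusted p = 0.000616). The copy vn2r1p.S had 23.6, 15.2 and 31.1 CPM in the principal cavity, against 54.8, 89.1 and 113 CPM in the VNO (log2 fold change -1.87 ± 0.32, adjusted p = 0.0077). Each call held in all 6 fits, and the groups of each did not overlap; with the 2 copies summed the log2 fold change was 1.15. The whole nose carried vn2r1p.L at 116 CPM and vn2r1p.S at 25.9 CPM on average, and the bulb carried 0.0242 and 0.0203 CPM.

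Receptors for transmitters were called about as often as genes in general. Of 97 tested, 9 (9.28%) were higher and 8 (8.25%) lower, against 8.66% and 6.53% of all genes, with 3 and 4 held. In fits that lack 1 library, the higher calls were 3 without principal cavity library 1, 5 without principal cavity library 2 and 4 without principal cavity library 3, the lower calls 4 without principal cavity library 1 and 4 without VNO library 2. The serotonin-gated channel subunit htr3c.L had 25.1, 25.4 and 40.02 CPM in the principal cavity, against 1.10, 0.303 and 1.87 CPM in the VNO (log2 fold change 4.81 ± 0.64, adjusted p = 0.00398). A gene annotated as a nicotinic receptor subunit, chrna5-like.S, had 6.43, 4.94 and 6.63 CPM in the principal cavity, against 0, 0.109 and 0.192 CPM in the VNO (log2 fold change 5.76 ± 0.69, adjusted p = 0.00146), and with its homeolog summed the difference was 0.55 and missed the threshold. On the VNO side, the nicotinic subunit chrna2.L had 0.865, 1.26 and 0.939 CPM in the principal cavity, against 8.87, 7.83 and 6.71 CPM in the VNO (log2 fold change -2.93 ± 0.29, adjusted p = 0.000628). The kainate receptor subunit grik1.L had a log2 fold change of -1.82 ± 0.26.

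Ion channels that shape firing divided the chambers gene by gene. Among 88 tested potassium and other channels 13 (14.8%) were higher and 10 (11.4%) lower (6 and 6 held), against 8.66% and 6.53% of all genes. Recounted in the reduced fits, higher calls numbered 8 without principal cavity library 1, 7 without principal cavity library 3 and 8 without VNO library 2, the lower calls 6 without principal cavity library 1. The tandem-pore potassium channel kcnk12.S had 0.425, 0.474 and 0.549 CPM in the principal cavity, against 20.0, 28.4 and 38.1 CPM in the VNO (log2 fold change -5.88 ± 0.30, adjusted p = 6.78e-05). The silent potassium channel subunit kcns3.S had 4 reads in all principal cavity libraries together, and its level was 0.0629, 0 and 0 CPM in the principal cavity, against 2.11, 4.29 and 3.84 CPM in the VNO. The sodium channel beta subunit scn3b.L had 12.4, 9.13 and 13.1 CPM in the principal cavity, against 80.7, 121 and 204 CPM in the VNO (log2 fold change -3.54 ± 0.34, adjusted p = 0.000594). Higher in the principal cavity were kcnmb2.S, the beta subunit of a calcium-activated potassium channel, with 17.4, 12.3 and 18.2 CPM in the principal cavity, against 0.612, 1.18 and 0.915 CPM in the VNO (log2 fold change 4.13 ± 0.31, adjusted p = 0.000204), and kcna1.S, a voltage-gated channel (log2 fold change 3.36 ± 0.29, adjusted p = 0.000346).

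Calcium channels and buffers gave 7 (14.6%) higher and 8 (16.7%) lower of 48 tested, against 8.66% and 6.53% of all genes, with 3 and 3 held. The higher calls numbered 3 without principal cavity library 1, 4 without principal cavity library 2, 3 without principal cavity library 3 and 4 without VNO library 2, the lower calls 4 without principal cavity library 1, 5 without principal cavity library 2, 5 without principal cavity library 3 and 3 without VNO library 2. The pore subunit of an L-type channel, cacna1c.L, had 5.51, 7.20 and 6.27 CPM in the principal cavity, against 44.3, 63.2 and 75.2 CPM in the VNO (log2 fold change -3.26 ± 0.23, adjusted p = 0.000161). The gene cacna1c.S was lower as well (log2 fold change -2.48 ± 0.20, adjusted p = 0.000253). The auxiliary subunit cacnb2.L ran against it, with 10.7, 9.42 and 12.0 CPM in the principal cavity, against 1.04, 1.71 and 2.66 CPM in the VNO (log2 fold change 2.57 ± 0.35, adjusted p = 0.00255). The neuronal calcium sensor hpcal1.L was lower in the principal cavity (log2 fold change -2.20 ± 0.23, adjusted p = 0.000746).

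Of 74 tested genes of synaptic vesicles and release, 3 (4.05%) were higher and 12 (16.2%) lower, against 8.66% and 6.53% of all genes, with 1 and 8 held. The median log2 fold change of the list was -0.12, compared with 0.0047 over all genes. Higher calls numbered 1 without principal cavity library 1, 1 without principal cavity library 3, 6 without VNO library 1 and 1 without VNO library 2. Copine 4, a calcium-dependent membrane-binding protein, had the largest differences among those named here. The gene cpne4.L had 1.32, 2.86 and 1.82 CPM in the principal cavity, against 54.9, 74.9 and 94.0 CPM in the VNO (log2 fold change -5.21 ± 0.35, adjusted p = 0.000151). The gene cpne4.S had 0.960, 1.70 and 0.911 CPM in the principal cavity, against 37.4, 53.3 and 73.9 CPM in the VNO (log2 fold change -5.52 ± 0.37, adjusted p = 0.000151). The calcium sensor gene doc2b.L had 1.53, 1.85 and 2.168 CPM in the principal cavity, against 12.0, 14.3 and 12.2 CPM in the VNO (log2 fold change -2.79 ± 0.24, adjusted p = 0.000317). The vesicle GTPase gene rab3b.L had a log2 fold change of -2.55 ± 0.25 (-0.86 summed, which missed the threshold).

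Somatostatin, an inhibitory peptide, was lower in the principal cavity through both copies. The gene sst.L had 12.6, 13.2 and 30.4 CPM in the principal cavity, against 632, 671 and 476 CPM in the VNO (log2 fold change -4.98 ± 0.42, adjusted p = 0.000302). The gene sst.S had 11.7, 16.2 and 19.4 CPM in the principal cavity, against 147, 133 and 61.0 CPM in the VNO (log2 fold change -2.85 ± 0.37, adjusted p = 0.00234; -4.38 summed). Summed over both copies in TPM, sst reached 105, 133 and 199 TPM in the principal cavity, against 2574, 3365 and 1967 TPM in the VNO. The prohormone convertase gene pcsk2.L, whose product cuts peptide precursors, was higher in the principal cavity, with 62.4, 43.8 and 65.7 CPM in the principal cavity, against 3.44, 3.82 and 5.78 CPM in the VNO (log2 fold change 3.72 ± 0.26, adjusted p = 0.000154). The peptide gene nmu.L was higher there too, at 4.80 ± 0.989 CPM in the principal cavity and 1.08 ± 0.334 CPM in the VNO (SD, n = 3 each; log2 fold change 2.14 ± 0.34, adjusted p = 0.00548). In all, 5 of 41 tested peptide and hormone genes (12.2%) were higher and 4 (9.76%) lower, against 8.66% and 6.53% of all genes, with 2 and 2 held. With 1 library left out, the higher calls came to 2 without principal cavity library 1, 2 without principal cavity library 2, 3 without principal cavity library 3, 10 without VNO library 1 and 2 without VNO library 2, and the lower calls 2 without principal cavity library 1.

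Transcription factors of the forebrain and the sensory placodes differed in both directions. Of 147 tested, 27 (18.4%) were higher and 28 (19%) lower, against 8.66% and 6.53% of all genes, and 10 and 19 of these calls held. The count of higher calls became 10 without principal cavity library 1 and 14 without VNO library 2. Factors beyond mef2c, olig2, sox1 and lhx2 are named here after their values had been seen. The basic helix-loop-helix factor olig2.S had 97.7, 88.1 and 86.3 CPM in the principal cavity, against 1.40, 2.89 and 5.25 CPM in the VNO (log2 fold change 4.83 ± 0.45, adjusted p = 0.000722). The gene olig2.L had 9.64, 10.4 and 11.3 CPM in the principal cavity, against 0, 0.413 and 0.516 CPM in the VNO (log2 fold change 5.001 ± 0.84, adjusted p = 0.00902). Control bulbs carried olig2.S at 21.7 CPM on average.

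The zinc finger repressors fezf1 and fezf2 differed in opposite directions. In mouse, Fezf1 acts in the main olfactory epithelium and is needed for receptor neuron axons to reach the bulb. The gene fezf1.L had 64.4, 51.3 and 68.6 CPM in the principal cavity, against 2.75, 3.59 and 4.13 CPM in the VNO (log2 fold change 4.14 ± 0.21, adjusted p = 6.78e-05). The gene fezf1.S had 67.9, 48.9 and 68.6 CPM in the principal cavity, against 1.94, 2.23 and 4.22 CPM in the VNO (log2 fold change 4.47 ± 0.33, adjusted p = 0.000187). For fezf2.L the libraries held 3.48, 5.19 and 2.46 CPM in the principal cavity, against 40.3, 63.1 and 65.4 CPM in the VNO (log2 fold change -3.91 ± 0.33, adjusted p = 0.000312), and for fezf2.S 2.69, 4.73 and 2.53 CPM in the principal cavity, against 43.5, 59.0 and 58.6 CPM in the VNO (log2 fold change -4.01 ± 0.30, adjusted p = 0.000188). In TPM summed over homeologs, fezf1 made up 93.1 to 97.3% of the joint level of the pair in the principal cavity and 6.01 to 8.25% in the VNO.

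The LIM homeodomain factor lhx2, needed in mouse for receptor neurons to mature, was higher in the principal cavity through both copies. The copy lhx2.S had 81.7, 60.8 and 77.2 CPM in the principal cavity, against 2.14, 2.84 and 5.69 CPM in the VNO (log2 fold change 4.36 ± 0.37, adjusted p = 0.000348; 1.91 summed). The gene lhx2.L had 142, 123 and 117 CPM in the principal cavity, against 42.4, 44.2 and 63.1 CPM in the VNO (log2 fold change 1.36 ± 0.19, adjusted p = 0.00329). Of the SoxB1 group, sox3 and sox1 differed in opposite directions. In TPM summed over homeologs, control bulbs held 840 TPM of sox3 and 336 TPM of sox1 on average, more than either chamber. The gene sox3.S was higher in the principal cavity, with 56.6, 47.1 and 44.7 CPM in the principal cavity, against 1.38, 4.13 and 6.24 CPM in the VNO (log2 fold change 3.66 ± 0.50, adjusted p = 0.00398; 2.44 summed). The gene sox1.L had 0.488, 1.46 and 1.142 CPM in the principal cavity, against 18.7, 37.7 and 22.8 CPM in the VNO (log2 fold change -4.67 ± 0.47, adjusted p = 0.000772). The gene sox1.S had 0.441, 0.769 and 0.882 CPM in the principal cavity, against 14.7, 31.0 and 20.5 CPM in the VNO (log2 fold change -4.97 ± 0.39, adjusted p = 0.000232).

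The MADS-box factor mef2c was lower in the principal cavity through both copies. The gene mef2c.L had 17.0, 20.1 and 18 CPM in the principal cavity, against 490.4, 609.7 and 799 CPM in the VNO (log2 fold change -5.10 ± 0.25, adjusted p = 6.78e-05). The gene mef2c.S had 2.53, 3.58 and 3.99 CPM in the principal cavity, against 103, 114 and 104 CPM in the VNO (log2 fold change -4.98 ± 0.22, adjusted p = 6.78e-05). The factor mef2c also regulates muscle genes, and muscle markers summed to 11.8 to 15.2 TPM in the principal cavity and 18.9 to 47.9 TPM in the VNO, against 48.8 to 1444 TPM in whole noses, where mef2c.L averaged 118 CPM. Of 6 muscle markers 4 were lower in the principal cavity, against 6.53% of all genes tested. The part of muscle in the mef2c difference was not tested. A set of forebrain factors was lower in the principal cavity by smaller amounts. The gene sp8.S had 50.01, 69.6 and 43.2 CPM in the principal cavity, against 192, 374 and 375 CPM in the VNO (log2 fold change -2.52 ± 0.31, adjusted p = 0.00174), dlx6.L had a log2 fold change of -1.86 ± 0.25, dlx5.S of -1.56 ± 0.23 and emx2.S of -1.37 ± 0.20. The factor tfap2e.S, whose mouse counterpart acts in basal vomeronasal neurons, had 15.5, 11.3 and 16.6 CPM in the principal cavity, against 27.1, 37.0 and 48.6 CPM in the VNO (log2 fold change -1.37 ± 0.24, adjusted p = 0.00779).

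**Figure D3:**
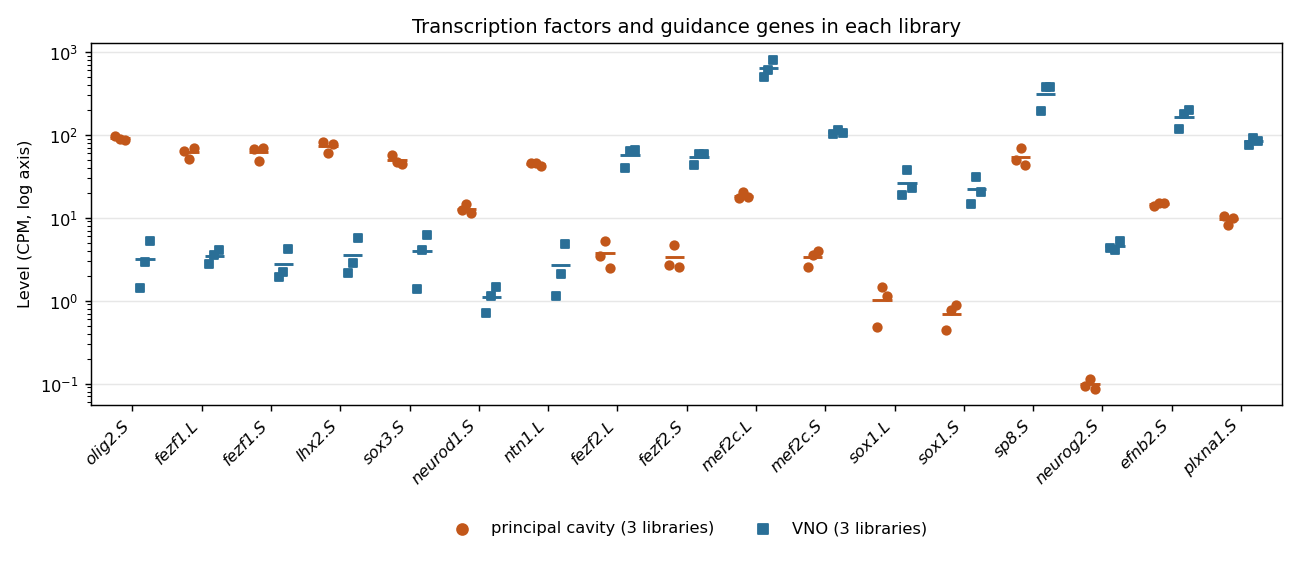
Level of transcription factors and guidance genes (CPM, log axis) in single libraries; circles are principal cavity libraries, squares VNO libraries, and bars the mean of 3. From olig2.S to ntn1.L all principal cavity libraries lie above all VNO libraries, and from fezf2.L to plxna1.S all lie below. All genes shown had been called in these directions, so this follows at least in part from how they were picked. Of all genes tested, 18.8% lie above and 17.1% below in this way.

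Proneural genes, which set neuronal fate in dividing precursors, differed in both directions. Of 66 tested proneural and progenitor genes, 10 (15.2%) were higher and 8 (12.1%) lower, against 8.66% and 6.53% of all genes, with 6 and 2 held. In fits that lack 1 library, the higher calls were 6 without principal cavity library 1, the lower calls 2 without principal cavity library 1, 4 without principal cavity library 3 and 3 without VNO library 2. The differentiation factor neurod1.S had 12.5, 14.7 and 11.4 CPM in the principal cavity, against 0.713, 1.13 and 1.46 CPM in the VNO (log2 fold change 3.54 ± 0.31, adjusted p = 0.000354). The gene neurod1.L was higher too (log2 fold change 2.37 ± 0.43, adjusted p = 0.00898). The RNA-binding protein gene lin28b.L, known from early progenitors, had 15.4, 8.44 and 19.2 CPM in the principal cavity, against 2.57, 1.77 and 3.26 CPM in the VNO (log2 fold change 2.502 ± 0.36, adjusted p = 0.00346). Against these, neurog2.S had 0.0944, 0.115 and 0.0867 CPM in the principal cavity, against 4.36, 4.04 and 5.19 CPM in the VNO (log2 fold change -5.49 ± 0.36, adjusted p = 0.000141). Cell cycle genes gave 3 (1.67%) higher and 1 (0.556%) lower calls of 180 tested, with 0 and 0 held. Their median log2 fold change was -0.54, compared with 0.0047 over all genes. Recounted in the reduced fits, higher calls numbered 0 without principal cavity library 1, 0 without principal cavity library 3 and 1 without VNO library 2, and the lower calls 0 without principal cavity library 1, 31 without principal cavity library 2, 2 without VNO library 1, 0 without VNO library 2 and 7 without VNO library 3. Principal cavity library 2 had the highest sum of cycling markers (157 TPM).

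Genes that guide axons differed in both directions. Of 158 tested, 21 (13.3%) were higher and 18 (11.4%) lower, against 8.66% and 6.53% of all genes, with 12 and 9 held. The higher calls numbered 12 without principal cavity library 1 and 13 without VNO library 2, the lower calls 10 without principal cavity library 1, 10 without principal cavity library 3 and 10 without VNO library 2. Netrin 1, an attractant and repellent of growing axons, was higher: ntn1.L had 45.7, 45.1 and 42.2 CPM in the principal cavity, against 1.15, 2.12 and 4.88 CPM in the VNO (log2 fold change 4.03 ± 0.49, adjusted p = 0.00255). The gene ntn1.S had 35.1, 32.8 and 26.8 CPM in the principal cavity, against 3.11, 4.48 and 4.97 CPM in the VNO (log2 fold change 2.92 ± 0.22, adjusted p = 0.000211). A netrin receptor gene, dcc.L, chosen after its values were seen, had 4.18, 3.80 and 3.32 CPM in the principal cavity, against 9.81, 10.6 and 19.1 CPM in the VNO and was lower (log2 fold change -1.79 ± 0.29, adjusted p = 0.00592). The semaphorin receptor gene plxna1.S had 10.5, 8.20 and 9.97 CPM in the principal cavity, against 75.8, 90.5 and 84.9 CPM in the VNO (log2 fold change -3.13 ± 0.16, adjusted p = 6.81e-05). The ephrin gene efnb2.S had 13.8, 15.1 and 15.2 CPM in the principal cavity, against 118, 178 and 201 CPM in the VNO (log2 fold change -3.49 ± 0.22, adjusted p = 0.000133). The gene efnb2.L was lower as well (log2 fold change -1.47 ± 0.19; -2.35 summed). Some semaphorin genes of class 6 were higher in the principal cavity, namely sema6c.S (log2 fold change 2.22 ± 0.19), sema6c.L (log2 fold change 2.13 ± 0.19) and sema6d.L (log2 fold change 2.06 ± 0.15). They are again named after their values were seen, and other members of the class are not given here.

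Genes of immature neurons and growth cones gave 7 (8.75%) higher and 11 (13.8%) lower of 80 tested, against 8.66% and 6.53% of all genes, with 4 and 4 held. Higher calls numbered 4 without principal cavity library 1, the lower calls 5 without principal cavity library 1, 7 without principal cavity library 2, 7 without principal cavity library 3, 4 without VNO library 2 and 7 without VNO library 3. The chemokine receptor gene cxcr4.L, which guides migrating cells, had 29.4, 41.5 and 24.4 CPM in the principal cavity, against 101, 118 and 128 CPM in the VNO (log2 fold change -1.85 ± 0.23, adjusted p = 0.00158). The microtubule-associated protein gene map2.L was higher in the principal cavity (log2 fold change 2.93 ± 0.32, adjusted p = 0.000999; 1.10 summed). The intermediate filament gene ina.L was lower (log2 fold change -2.01 ± 0.26, adjusted p = 0.00202; -0.30 summed, which missed the threshold).

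Retinoic acid is made by retinaldehyde dehydrogenases and broken down by enzymes of the CYP26 family, and the chambers differed in both. The synthetic enzyme gene aldh1a3.S had 3.84, 3.86 and 5.80 CPM in the principal cavity, against 0.280, 0.352 and 0.133 CPM in the VNO (log2 fold change 4.13 ± 0.45, adjusted p = 0.00102). Its relative aldh1a2.S had 2.05, 4.38 and 2.28 CPM in the principal cavity, against 31.0, 29.2 and 24.7 CPM in the VNO (log2 fold change -3.28 ± 0.33, adjusted p = 0.00065), and aldh1a2.L, named after its values were seen, was also lower in the principal cavity (log2 fold change -2.07 ± 0.24, adjusted p = 0.0013). On the length-scaled measure aldh1a1 was the most abundant of the 3 in both chambers, with 132, 121 and 91.4 TPM in the principal cavity, against 33.0, 61.5 and 45.4 TPM in the VNO. The catabolic enzyme gene cyp26c1.L had 0.220, 0.524 and 0.260 CPM in the principal cavity, against 12.8, 5.80 and 10.1 CPM in the VNO (log2 fold change -4.83 ± 0.48, adjusted p = 0.000683; -2.29 summed). The retinol carrier gene rbp4.S was higher in the principal cavity, with 10.3, 10.5 and 18.9 CPM in the principal cavity, against 0.790, 0.267 and 0.664 CPM in the VNO (log2 fold change 4.55 ± 0.48, adjusted p = 0.000844), and bulbs carried 199.8 CPM on average.

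Enzymes that clear foreign compounds, a task of the supporting (sustentacular) cells of the olfactory epithelium, differed in both directions. Marker sums for these cells overlapped between the chambers, at 1360 to 1721 TPM in the principal cavity and 1465 to 2634 TPM in the VNO. Nearly all of each sum came from the keratin krt18, of which neither copy was called. The marker cyp2a13.L gave 24.8, 24.8 and 18.9 TPM in the principal cavity, against 2.45, 2.755 and 3.63 TPM in the VNO. It was the 1 of 4 marker genes called higher (log2 fold change 2.70 ± 0.20, adjusted p = 0.000204), and 0 were lower. Of 73 tested genes of sustentacular cells and detoxification (retinoid enzymes included), 18 (24.7%) were higher and 11 (15.1%) lower, against 8.66% and 6.53% of all genes, with 10 and 5 held. With 1 library left out, the higher calls came to 11 without VNO library 2, the lower calls 5 without principal cavity library 1 and 6 without VNO library 2. The glutathione transferase gene gsta1.L had 353, 372 and 281 CPM in the principal cavity, against 25.6, 51.1 and 64.0 CPM in the VNO (log2 fold change 2.85 ± 0.33, adjusted p = 0.0013; 1.38 summed). The next genes, also higher, are named after their values were seen. The cytochrome P450 gene cyp2a6.L had 158, 189 and 131 CPM in the principal cavity, against 19.8, 23.3 and 32.2 CPM in the VNO (log2 fold change 2.67 ± 0.24, adjusted p = 0.00038). The epoxide hydrolase gene ephx1.L had 271, 229.8 and 319 CPM in the principal cavity, against 40.7, 51.3 and 67.8 CPM in the VNO (log2 fold change 2.37 ± 0.23, adjusted p = 0.000613). The cytochrome P450 gene cyp1b1.S was lower (log2 fold change -3.06 ± 0.52, adjusted p = 0.00714).

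Secreted proteins of the zona pellucida type were higher in the principal cavity. The uromodulin gene umod.3.L had 2134, 1794 and 1716 CPM in the principal cavity, against 182, 180.3 and 232 CPM in the VNO (log2 fold change 3.25 ± 0.22, adjusted p = 0.000151). The gene umodl1.L had 780.0, 599 and 727 CPM in the principal cavity, against 37.1, 66.03 and 106 CPM in the VNO (log2 fold change 3.35 ± 0.37, adjusted p = 0.00106). Among 50 tested mucus and secreted genes, 6 (12%) were higher and 2 (4%) lower, against 8.66% and 6.53% of all genes, with 4 and 1 held. The count of higher calls became 13 without VNO library 1, and the lower calls 1 without principal cavity library 1. The trefoil factor gene tff2.L, a mucosal peptide, was higher at 11.3 ± 1.95 CPM in the principal cavity and 3.32 ± 0.759 CPM in the VNO (SD, n = 3 each; log2 fold change 1.77 ± 0.25, adjusted p = 0.00329).

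Developmental signal genes differed in both directions. Of 198 tested genes of the Wnt, Notch, BMP, FGF, hedgehog and retinoid pathways, 15 (7.58%) were higher and 23 (11.6%) lower, against 8.66% and 6.53% of all genes, with 3 and 10 held. The median log2 fold change of the list was 0.0046, compared with 0.0047 over all genes. In fits that lack 1 library, the higher calls were 3 without principal cavity library 1, 9 without principal cavity library 3, 28 without VNO library 1 and 6 without VNO library 2, the lower calls 10 without principal cavity library 1, 13 without principal cavity library 3 and 14 without VNO library 2. The BMP antagonist chordin was higher, with chrd.1.L at 15.3, 13.2 and 13.9 CPM in the principal cavity, against 0.0255, 0.401 and 0.841 CPM in the VNO (log2 fold change 5.01 ± 0.78, adjusted p = 0.00713). The BMP ligand gene bmp7.1.S had 3.93, 4.42 and 3.05 CPM in the principal cavity, against 21.4, 25.8 and 18.5 CPM in the VNO (log2 fold change -2.52 ± 0.23, adjusted p = 0.000437; -1.43 summed). The BMP pseudoreceptor gene bambi.S had 8.75, 10.03 and 7.39 CPM in the principal cavity, against 39.5, 33.9 and 35.9 CPM in the VNO (log2 fold change -2.06 ± 0.18, adjusted p = 0.000349); both are named after their values were seen. The Wnt ligand gene wnt11b.L had 0.0315, 0.147 and 0.0578 CPM in the principal cavity, against 2.93, 6.81 and 3.75 CPM in the VNO (log2 fold change -5.81 ± 0.63, adjusted p = 0.000993). The growth factor gene fgf8.L had 0.346, 0.409 and 0.289 CPM in the principal cavity, against 2.47, 4.30 and 3.61 CPM in the VNO (log2 fold change -3.30 ± 0.37, adjusted p = 0.00114).

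Proteins that fold in the endoplasmic reticulum (ER) are helped by chaperones and leave it in coated vesicles, and many genes of both steps were lower in the principal cavity. Of 80 tested chaperone and folding genes, 1 was higher and 36 (45%) lower, against 6.53% of all genes, with 17 lower calls held and a median log2 fold change of -0.59. The lower calls numbered 17 without principal cavity library 1 and 23 without VNO library 2. The chaperone GRP94, encoded by hsp90b1, was lower in both copies: hsp90b1.L had 431, 435 and 348 CPM in the principal cavity, against 1426, 2103 and 2209 CPM in the VNO (log2 fold change -2.23 ± 0.24, adjusted p = 0.000999). The gene hsp90b1.S had 94.2, 114 and 87.2 CPM in the principal cavity, against 212, 283 and 299 CPM in the VNO (log2 fold change -1.42 ± 0.20, adjusted p = 0.00319). The chaperone BiP showed the same in both copies, with hspa5.S at 197, 277 and 176 CPM in the principal cavity, against 839, 889.9 and 900.0 CPM in the VNO (log2 fold change -2.01 ± 0.23, adjusted p = 0.00121) and hspa5.L at 132, 201 and 128 CPM in the principal cavity, against 453, 463 and 443 CPM in the VNO (log2 fold change -1.55 ± 0.23, adjusted p = 0.00365). No principal cavity library reached the lowest VNO library for any of these copies, a lack of overlap shown in this direction by 17.1% of all genes tested.

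Cochaperones and secreted helpers followed. The gene dnajb9.S had 147, 115 and 137 CPM in the principal cavity, against 384, 559 and 709 CPM in the VNO (log2 fold change -2.04 ± 0.25, adjusted p = 0.00164). The gene dnajb11.S had 41.0, 43.8 and 29.2 CPM in the principal cavity, against 126, 186 and 208 CPM in the VNO (log2 fold change -2.18 ± 0.25, adjusted p = 0.00113). The ER-resident neurotrophic factor gene manf.S had 30.5, 45.5 and 25.7 CPM in the principal cavity, against 191, 169.5 and 142 CPM in the VNO (log2 fold change -2.30 ± 0.26, adjusted p = 0.00111), and creld2.S had a log2 fold change of -2.19 ± 0.23. Control noses carried hsp90b1.L at 409.6 CPM and hspa5.S at 344 CPM on average, and bulbs 168 and 200.2 CPM.

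In the list of translocation and export, 2 of 123 tested genes were higher and 32 (26%) lower, against 8.66% and 6.53% of all genes, with 2 and 8 held and a median log2 fold change of -0.44. The lower calls numbered 8 without principal cavity library 1, 11 without principal cavity library 3 and 8 without VNO library 2. The signal peptidase subunit spcs2.L had 96.0, 86.7 and 93.9 CPM in the principal cavity, against 229.8, 285 and 303 CPM in the VNO (log2 fold change -1.56 ± 0.17, adjusted p = 0.00101), and sec11c.S, another subunit, had 54.0, 61.9 and 61.8 CPM in the principal cavity, against 116, 153 and 181 CPM in the VNO (log2 fold change -1.33 ± 0.19, adjusted p = 0.00339). The vesicle coat gene sec23a.S was also lower (log2 fold change -1.39 ± 0.15, adjusted p = 0.000978). The higher genes were sec16b.L, which organizes export sites, with 16.8, 18.4 and 17.9 CPM in the principal cavity, against 2.06, 4.54 and 2.52 CPM in the VNO (log2 fold change 2.54 ± 0.31, adjusted p = 0.00156), and reep2.L (log2 fold change 1.99 ± 0.27, adjusted p = 0.00253). Ribosomal protein genes gave 0 higher and 4 lower calls of 99 tested and respiratory chain genes 0 and 12 of 114, none of them held. Their median log2 fold changes were -0.46 and -0.31.

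**Figure D4:**
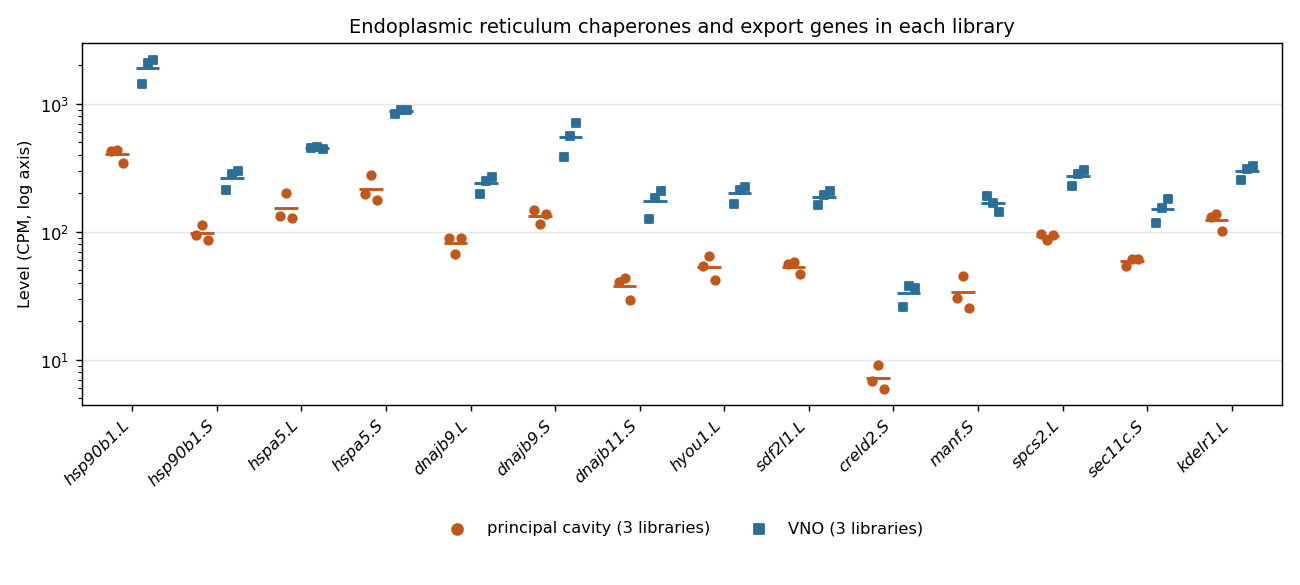
Level of ER chaperone and export genes (CPM, log axis) in single libraries; circles are principal cavity libraries, squares VNO libraries, and bars the mean of 3. For each gene shown all principal cavity libraries lie below all VNO libraries, as do 17.1% of all genes tested. All genes shown had been called lower, so this follows at least in part from how they were picked. Of the lists, 43 of 80 chaperone and folding genes and 89 of 123 export genes were not called.

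Genes of motile cilia were higher in the principal cavity in many calls that did not hold in every fit. Of 82 tested, 36 (43.9%) were higher and 3 lower, against 8.66% and 6.53% of all genes, with 10 and 2 held. Recounted in the reduced fits, higher calls numbered 10 without principal cavity library 1, 19 without principal cavity library 3, 57 without VNO library 1, 16 without VNO library 2 and 23 without VNO library 3. A regulator of motile cilia, foxj1.L, had 51.9, 42.9 and 43.7 CPM in the principal cavity, against 24.2, 15.6 and 18.9 CPM in the VNO (log2 fold change 1.24 ± 0.20, adjusted p = 0.00533). Its relative foxj1.2.L had 36.2, 36.3 and 32.5 CPM in the principal cavity, against 16.2, 13.0 and 14.7 CPM in the VNO (log2 fold change 1.26 ± 0.16, adjusted p = 0.00174). The copy foxj1.S was higher too. The copy foxj1.2.S was not called, with 39.4, 37.1 and 40.1 CPM in the principal cavity, against 31.3, 18.4 and 16.3 CPM in the VNO. The kinase gene plk4.S, which starts centriole duplication, had 56.0, 81.5 and 46.7 CPM in the principal cavity, against 8.74, 11.1 and 13.9 CPM in the VNO (log2 fold change 2.46 ± 0.26, adjusted p = 0.000917). An axonemal motor ran against the list, with dnah11.L at 3.68, 4.53 and 3.50 CPM in the principal cavity, against 22.2, 30.8 and 31.6 CPM in the VNO (log2 fold change -2.85 ± 0.21, adjusted p = 0.000189). Genes of intraflagellar transport, which build cilia of every kind, gave 20 (29.4%) higher and 0 lower of 68 tested, with 2 held. The higher calls numbered 2 without principal cavity library 1, 6 without principal cavity library 2, 6 without principal cavity library 3 and 2 without VNO library 2.

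Glia and vessels of the tissue were measured beside the epithelium. Of 36 tested genes of Schwann and ensheathing glia, 10 (27.8%) were higher and 3 (8.33%) lower, against 8.66% and 6.53% of all genes, with 4 and 0 held. Higher calls numbered 4 without principal cavity library 1, 5 without principal cavity library 2, 6 without principal cavity library 3 and 4 without VNO library 2. The myelin gene mpz.L had 46.6, 40.6 and 36.7 CPM in the principal cavity, against 6.22, 3.58 and 3.82 CPM in the VNO (log2 fold change 3.19 ± 0.26, adjusted p = 0.000268). The myelin lipid-binding gene pmp2.L had 54.4, 50.7 and 61.2 CPM in the principal cavity, against 8.28, 4.18 and 10.4 CPM in the VNO (log2 fold change 2.87 ± 0.32, adjusted p = 0.00104). Endothelial genes gave 17 (24.6%) higher and 7 (10.1%) lower of 69 tested, against the same shares of all genes, with 9 and 3 held. With 1 library left out, the higher calls came to 10 without principal cavity library 1, 9 without principal cavity library 3 and 9 without VNO library 2, the lower calls 3 without principal cavity library 1 and 4 without principal cavity library 3. The cadherin gene cdh5.S had 3.96, 5.37 and 3.70 CPM in the principal cavity, against 1.12, 0.789 and 1.48 CPM in the VNO (log2 fold change 1.95 ± 0.35, adjusted p = 0.00828; 1.28 summed), whereas gata2.S, a factor of endothelium, blood and neurons, was lower (log2 fold change -1.74 ± 0.24, adjusted p = 0.00314). Red cell and muscle genes gave 1 (1.45%) higher and 15 (21.7%) lower of 69 tested, with 1 and 4 held. The lower calls numbered 5 without principal cavity library 1, 6 without principal cavity library 3 and 9 without VNO library 1, and mef2c is a member of this list.

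Keratins and epidermal genes gave 9 (10.5%) higher and 0 lower of 86 tested, against 8.66% and 6.53% of all genes, with 3 held. The count of higher calls became 3 without principal cavity library 1, 5 without principal cavity library 3, 39 without VNO library 1 and 5 without VNO library 2, and the lower calls 2 without VNO library 1, which carried krt2l.S at 252 CPM. Keratin krt16.S had 102, 113 and 107 CPM in the principal cavity, against 17.5, 10.6 and 12.8 CPM in the VNO (log2 fold change 2.99 ± 0.22, adjusted p = 0.000188). Leukocyte genes were called about as often as all genes, with 8 (7.48%) higher and 9 (8.41%) lower of 107 tested, and 2 and 4 held. In fits that lack 1 library, the higher calls were 2 without principal cavity library 1, 4 without principal cavity library 2, 4 without principal cavity library 3, 4 without VNO library 2 and 5 without VNO library 3, the lower calls 5 without principal cavity library 1. The T cell kinase gene lck.L was lower (log2 fold change -1.95 ± 0.25, adjusted p = 0.00193). The T-box factor tbx21.S, known from lymphocytes and from projection neurons of the bulb, had 1.71, 1.77 and 1.79 CPM in the principal cavity, against 10.7, 16.5 and 23.1 CPM in the VNO (log2 fold change -3.24 ± 0.30, adjusted p = 0.00048). Control bulbs carried tbx21.S at 0.581 CPM on average. The macrophage receptor gene mrc1.L was higher at 3.61 ± 1.28 CPM in the principal cavity and 0.793 ± 0.130 CPM in the VNO (SD, n = 3 each; log2 fold change 2.20 ± 0.38, adjusted p = 0.00746).

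Ranked by the difference in mean CPM among calls that held within 1.5 times of their size, 4 of the 10 genes highest in the principal cavity and 1 of the 10 highest in the VNO were models without a symbol. On the principal cavity side the named genes beyond umod.3.L, umodl1.L and gng13.L were the heme-binding protein genes hebp2.L, with 2006, 1749 and 1264 CPM in the principal cavity, against 351, 368 and 454 CPM in the VNO (log2 fold change 2.10 ± 0.25, adjusted p = 0.00129), and hebp2.S, and fam151a.S, with 962, 793 and 778 CPM in the principal cavity, against 67.9, 81.3 and 114 CPM in the VNO (log2 fold change 3.27 ± 0.25, adjusted p = 0.000212). On the VNO side the actin-severing gelsolin gene gsn.L had 216, 221 and 242 CPM in the principal cavity, against 1441, 1835 and 2243 CPM in the VNO (log2 fold change -3.02 ± 0.23, adjusted p = 0.000212). The LIM protein gene crip1.L had 29.6, 50.4 and 46.6 CPM in the principal cavity, against 1026, 1176 and 1655 CPM in the VNO (log2 fold change -4.92 ± 0.32, adjusted p = 0.000141). The kinase gene stk32a.S had 48.5, 51.6 and 55.3 CPM in the principal cavity, against 527, 836 and 1088 CPM in the VNO (log2 fold change -3.97 ± 0.29, adjusted p = 0.000189), stk32a.L followed (log2 fold change -2.11 ± 0.38, adjusted p = 0.0086). The selenoprotein gene selm.S had a log2 fold change of -2.06 ± 0.29. Bulbs carried crip1.L at 10.04 CPM and stk32a.S at 5.22 CPM on average.

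The remaining lists covered immune, skeletal, brain and activity genes, and their shares stand against 8.66% of all genes tested higher and 6.53% lower. Interferon and antigen presentation genes gave 3 (5.26%) higher and 4 (7.02%) lower of 57 tested, with 2 and 0 held. Recounted in the reduced fits, higher calls numbered 6 without VNO library 1 and 6 without VNO library 3, the lower calls 0 without principal cavity library 1, 2 without principal cavity library 3, 1 without VNO library 2 and 2 without VNO library 3. Genes of cartilage, bone and matrix gave 6 (6.90%) higher and 3 (3.45%) lower of 87 tested, with 0 and 0 held. The higher calls numbered 1 without principal cavity library 1, 1 without principal cavity library 2, 16 without VNO library 1, 1 without VNO library 2 and 1 without VNO library 3, the lower calls 0 without principal cavity library 1, 1 without principal cavity library 3 and 0 without VNO library 2. Genes of bulb and brain gave 18 (20.7%) higher and 11 (12.6%) lower of 87 tested, with 10 and 9 held. Higher calls numbered 10 without principal cavity library 1 and 11 without principal cavity library 2. Immediate early genes gave 5 (8.77%) higher and 0 lower of 57 tested, with 0 and 0 held. With 1 library left out, the higher calls came to 0 without principal cavity library 1, 1 without principal cavity library 3 and 0 without VNO library 2. Taste and amine receptor genes gave 1 (50%) higher and 0 lower of 2 tested, with 0 and 0 held. The count of higher calls became 0 without principal cavity library 1 and 0 without principal cavity library 3.

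**Figure D5:**
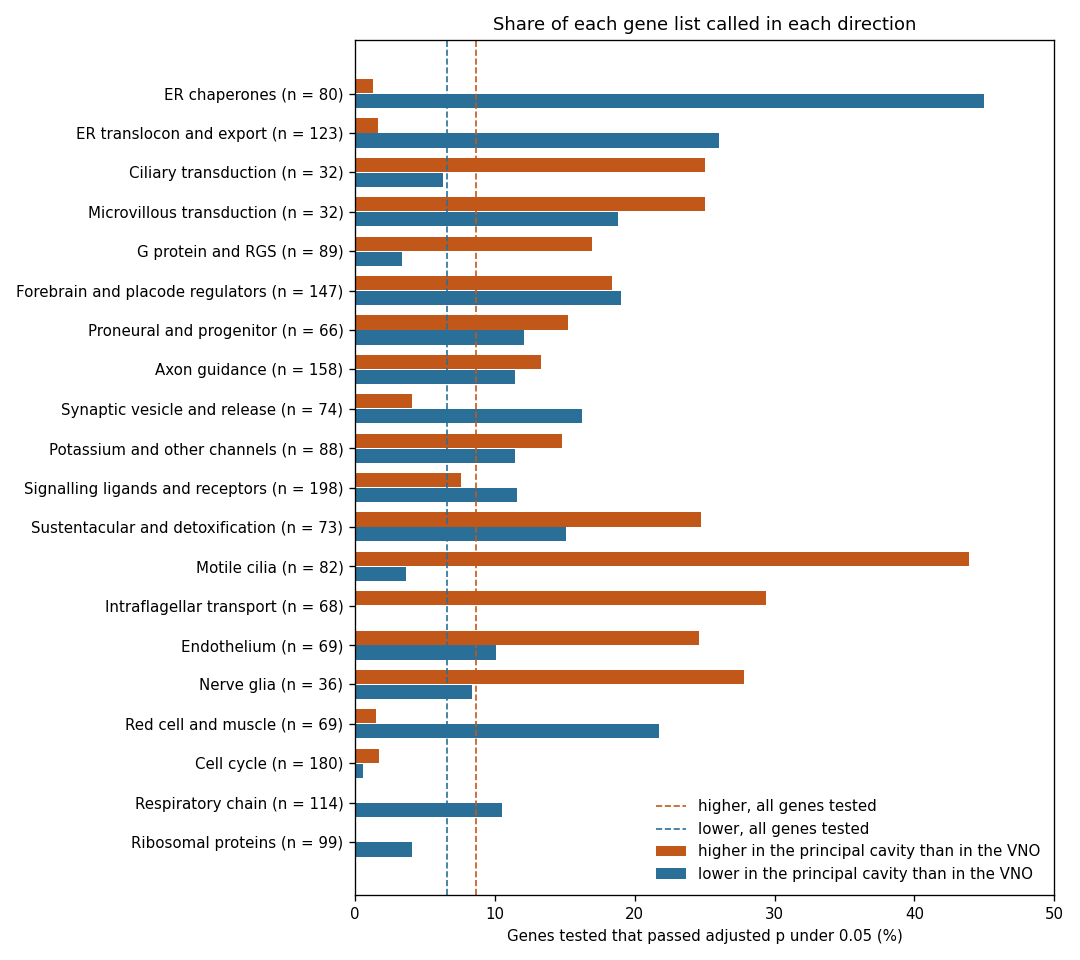
Percent of the tested genes of each list that were higher (upper bar) or lower (lower bar) in the principal cavity than in the VNO at an adjusted p under 0.05; dashed lines give the same for all genes tested (8.66% and 6.53%), and n is the number of genes tested. ER chaperones reach 45% lower and motile cilia 43.9% higher, while forebrain and placode regulators exceed the lines in both directions.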

How the data were processed

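RNA was sequenced from 39 libraries, of which 6 are compared here. Per the submitters' processing notes, bcl2fastq 2.17.1.14, STAR 2.5 and featureCounts of Subread 1.5.0 were used; the genome build is not given in the sources used here. The authors deposited raw counts per gene and TPM values. From the counts, 17 repeated entries were dropped and 37223 genes kept. Genes passed edgeR's filterByExpr (minimum count 10, minimum total 15), which left 31396, and were tested with TMM factors and edgeR's robust quasi-likelihood test (edgeR 4.0.16, R 4.3.3), with Benjamini-Hochberg adjustment over all of them and a threshold of 0.05. CPM values use TMM factors over all 39 libraries. TPM values are as deposited and serve for sums and comparisons between genes. Some named genes lay below what the filter asks in at least 1 library of a chamber and passed only through the other chamber. Beside odorant receptors, among them were cnga2.L, chrna5-like.S, chrd.1.L, olig2.L, aldh1a3.S, kcns3.S, neurog2.S and wnt11b.L. For such genes the direction and a lack of overlap are no independent support.

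Alternatives were RLE factors, DESeq2 1.42.0, voom with library quality weights (limma 3.58.1), no filter on low counts, leaving out each library, leaving out principal cavity library 3 and VNO library 1 together, all 39 libraries in 1 model, a replicate block and summed homeologs. The fit was also run on counts simulated as independent libraries with the spread that the fit itself estimated. Such a run cannot show the effect of a library that stands apart. Named genes were, by rule, up to 12 per direction, taken by size of fold change, that reached 5 CPM on average in either chamber and whose call and size held without each library, up to 5 per list, a fixed set, and the 10 largest CPM differences per direction; the others, such as fezf1, fezf2, slc12a2.S, kcna1.S, sp8.S and tfap2e.S, were chosen after their values were seen. The libraries, lists and tests were chosen with earlier results of these data known. Depth, 43379380 to 80767093 counted reads per library, limits genes with few reads most, and bounds against 0 reads cover counting error only.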

Additional observations from a re-analysis of the deposited data

How the results depend on the processing

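Summed homeologs apart, no gene called both in the main test and in an alternative changed direction. The number of genes called, 4768 with 2719 higher and 2049 lower, ran from 1999 to 6053 over the fits that leave out 1 library each, the higher calls from 1063 to 3773 and the lower calls from 936 to 2280. A model over all 39 libraries called 13486 genes (8138 higher, 5348 lower), and voom with quality weights 11321 (5943 higher, 5378 lower). DESeq2 called 3158 genes lower and 3931 higher. RLE factors gave 4797 calls, no filter on low counts 4589, the fit that drops both principal cavity library 3 and VNO library 1 4840, and summed homeologs 3828; the causes of these differences were not tested. The numbers in the column names were not used to pair the libraries in the main test. Same-numbered libraries deviated from their group means with correlations of -0.131, 0.164 and 0.332, and other combinations with -0.455 to 0.256. With 3 libraries per group, these values cannot show whether the libraries were paired. A replicate block gave 4854 calls, 2713 higher and 2141 lower. In 22 homeolog pairs the .L copy was called higher and the .S copy lower, and in 11 the reverse, so summing a pair turned the sign of 1 of its copies. Among the single genes followed through the alternatives, summing turned the sign of 9: apln.L to -0.48, vn2r1p.S to 1.15, ret.S to 0.060, scn3b.S to -3.22, htr7.L to -0.98, kcnc1.S to -0.12, slc8a2.L to 0.77, gpr37l1.S to -0.34 and nrxn3.L to -0.13.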

Other observations

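Homeologs did not always move together. Of 8750 pairs with both copies tested, 233 had both copies higher in the principal cavity, 189 had both lower, 1498 had 1 copy called and 6797 had neither. In 22 pairs the .L copy was higher and the .S copy lower, and in 11 pairs the reverse held. Across pairs, which are not independent replicates and share the same libraries, the log2 fold changes of the copies had a Pearson correlation of 0.504, or 0.647 over the 5445 pairs with both copies at a mean of 5 CPM or more. The vomeronasal receptor pair vn2r1p is 1 of the 22. Where the copies are near-identical, reads could have been split between them in counting, and the part of this in the opposite calls was not tested.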
